A study of Mus musculus with 32 samples.

Results

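The variable (Vκ) segments described here are the 4 Igkv14 segments, the 3 Igkv17 segments and Igkv11-125 of the mouse Igκ light chain locus, which together make 8 of the 112 Vκ segments counted. They were taken by name, as all rows of the Igkv14 and Igkv17 families and the single row Igkv11-125, in both deposited tables of rearranged Igκ reads, and the rule uses no measured value, although earlier results of these data were known when the set was chosen. The study followed which Vκ segments, and which parental allele of each, are joined to a Jκ segment in pre-B-cell clones from crosses of B6 and Cast mice. Rearranged Igκ RNA was primed from the constant (Cκ) exon, amplified and sequenced (VJ-seq), and reads were assigned to a Vκ segment on the B6 or the Cast allele by sequence differences between the strains.

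All libraries came from bone marrow derived cells of the label strain C57BL6/Castaneous, and the study's methods give female F1 mice of 8 to 12 weeks. Clones 3, 4, 8, B52 and E9-3 were each grown from a single cell by limiting dilution, with IL-7 on ST2 feeder cells, and IL-7 was then withheld for 48 h to induce rearrangement. Clone 4 was also followed at 12, 24, 36 and 48 h without IL-7, in a table of its own. The pool is labelled as cultured pre-B cells, whereas the methods describe the RNA not taken from clones as taken from the bone marrow of a mouse. Counts of the pool and the clones share a 48 h label, which does not say whether the time applies to the pool. No other time without IL-7 is stated for it. Each clone stands for 1 cell's descendants, each condition has 1 library, and clone 4 is the only clone that was sequenced again at the same time, so tests on reads compare libraries. For clone 3, the study notes that late passages lost most of the Cast Vκ region, by a rearrangement with the most distal segment. The passage used for VJ-seq is not given. In this library 80861 of 165679 reads were on Cast, and the most abundant segment was Igkv2-137, the most distal, with 12001 reads (7.24%). Igkv2-137 was also the most abundant segment of clone 8 (4.80%). In clone 3, 80 of the 112 segments had at least 3 Cast reads, against 73 to 76 in the pool and the other clones. Whether the loss was present in the clone 3 cells used was not tested. The tables hold Vκ segments only, so that the cell type could not be checked against other marker genes.

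A light chain gene is assembled when the RAG recombinase cuts at recombination signal sequences (RSS) beside a Vκ and a Jκ segment and the ends are joined. An RSS consists of a conserved heptamer next to the coding sequence, a spacer and a conserved nonamer, and Vκ segments carry the short spacer. Vκ segments that lie in the same orientation as the Jκ segments rearrange by deletion of the DNA between them, and those in the opposite orientation by inversion. Many Vκ promoters carry an octamer motif that is bound by Oct transcription factors. The families differ in the sequence of their framework regions, and segments without an intact reading frame or signal are classed as pseudogenes.

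In the GENCODE M21 annotation of mm10, all 8 segments lie in the part of the locus far from the Jκ cluster, between 2.20 and 3.00 Mb upstream of Jκ1 on chromosome 6, and each has 2 exons, the leader and the V exon. From distal to proximal they are Igkv17-134 (chr6:67720729-67721225), Igkv14-130 (chr6:67791046-67791511), Igkv17-127 (chr6:67861153-67861659), Igkv14-126 (chr6:67896172-67896642), Igkv11-125 (chr6:67913573-67914052), Igkv17-121 (chr6:68036812-68037318), Igkv14-111 (chr6:68256389-68256869) and Igkv14-100 (chr6:68519012-68519477). Igkv17-134 lies on the minus strand, and the other 7 lie on the plus strand, the orientation of the Jκ segments, against 41 of the 111 segments found by name. Igkv17-134 is annotated as a pseudogene in GENCODE and in RefSeq, and Igkv14-126 as a functional gene in GENCODE but as a pseudogene in RefSeq.

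The end of the V exon and the RSS that follows it are shown for all 8 segments, because whether a segment was read at all divides them and the RSS is the sequence at which it is cut. Each line gives the last 20 bases of the V exon, the heptamer, the spacer of 12 bases and the nonamer, 5′ to 3′ on the coding strand of the segment, from the RefSeq copy of the mm10 (GRCm38.p6) genome, which is the B6 sequence, with the heptamer and the nonamer in capitals.
Igkv17-134 (chr6:67720701-67720748, minus strand): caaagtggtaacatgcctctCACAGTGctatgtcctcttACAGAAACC
Igkv17-127 (chr6:67861640-67861687, plus strand): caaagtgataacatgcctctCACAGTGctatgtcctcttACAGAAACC
Igkv17-121 (chr6:68037299-68037346, plus strand): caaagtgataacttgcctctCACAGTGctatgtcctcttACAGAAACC
Igkv14-130 (chr6:67791492-67791539, plus strand): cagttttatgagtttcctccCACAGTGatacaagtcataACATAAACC
Igkv14-126 (chr6:67896623-67896670, plus strand): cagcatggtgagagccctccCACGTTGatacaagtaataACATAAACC
Igkv14-111 (chr6:68256850-68256897, plus strand): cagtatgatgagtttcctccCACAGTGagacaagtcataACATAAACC
Igkv14-100 (chr6:68519458-68519505, plus strand): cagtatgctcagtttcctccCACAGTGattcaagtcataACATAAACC
Igkv11-125 (chr6:67914033-67914080, plus strand): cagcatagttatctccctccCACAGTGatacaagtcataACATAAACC

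The heptamer CACAGTG directly followed the V exon in 7 of the 8 segments, as it did in 92 of the 111 segments with coordinates (82.9%). Igkv14-126 was the exception, with CACGTTG, which differs from CACAGTG by A4G and G5T (consensus base first, positions counted from 1 at the 5′ end of the heptamer) and was found beside no other segment. None of the 8 had the consensus nonamer ACAAAAACC, which 36 of the 111 had. The Igkv14 segments and Igkv11-125 had ACATAAACC (A4T, counted from 1 at the 5′ end of the nonamer), as did 26 of the 111, and the 3 Igkv17 segments had ACAGAAACC (A4G), which no other segment had. The whole RSS was the same in all 3 Igkv17 segments, the pseudogene included, and the same in Igkv14-130 and Igkv11-125. The octamer ATTTGCAT was found within 250 bases before the annotated start of all 8 segments, against 79 of the 111 (71.2%), and searching the other strand added none. These motifs were read on the B6 genome and do not show what lies on the Cast allele.

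Sequence likeness among the segments bears on how reads are assigned. The spliced exons of Igkv17-127 and Igkv17-121 were 97.5% identical, with 9 mismatches over 359 bases, so reads could have been split between them, and the values of these 2 segments are less certain than the others for that reason. Igkv17-134 was 94.1% identical to Igkv17-127, and Igkv14-126 was 91.6% identical to Igkv14-111. Igkv14-130 and Igkv14-100 were each 82.4% identical to Igkv14-111, and Igkv11-125 was 87.0% identical to Igkv11-106, the other Igkv11 segment, and 81.3% identical to Igkv14-111.

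The pool library had 320951 reads, the clone libraries between 34291 (clone E9-3) and 165679 (clone 3), and the time-course libraries 1737, 1174, 7092 and 10958 reads at 12, 24, 36 and 48 h. A count of 0 reads allows a contribution of up to 3 reads, which is 0.000935% of the pool, at most 0.00875% of a clone library and at most 0.256% of a time-course library. B6 reads made up 57.4% of the pool, 51.2% to 71.8% of the clones and 76.2% to 84.2% of the time course. Igkv19-93, which is not among the 8, took 59.0% of the reads at 12 h and 8.94% at 48 h of the time course, and Igkv3-7 took 20.1% of the reads of clone B52. The reads carry no molecular identifiers, so the 95% Wilson intervals and limits given here cover counting error only. Because the template was RNA, fewer cells with a segment joined and less RNA per cell cannot be told apart.

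Together the 8 segments gave 17866 reads in the pool, 5.57% of the library (interval 5.49 to 5.65%). In the clones they gave 5.75% of clone 8, 4.36% of clone 4, 3.47% of clone 3, 2.14% of clone E9-3 and 1.199% of clone B52. No neighbouring pair in that order had overlapping intervals, and the pool lay within the range of the clones, next to clone 8. This order rests on Igkv14-111. Without it the other 7 gave 3.04% of the pool, 2.04% of clone 3, 1.81% of clone 8, 1.47% of clone 4, 1.34% of clone E9-3 and 0.856% of clone B52, so that the pool lay above every clone and clone 3 led. In the time-course library of clone 4 at 48 h these 7 gave 2.78%, above clone 3 and below the pool. The 20 other segments with a position number of 100 or above, the comparison set of distal Vκ segments, gave 29.8% of the pool and 14.4% to 31.3% of the clones. By segment, the median contribution to the pool was 0.299% over the 8, 0.671% over the 20 other distal segments and 0.440% over all 112. On the B6 and Cast alleles the 8 segments gave like parts of the pool, 5.59% of B6 reads and 5.53% of Cast reads, while in clone 4 they gave 3.03% of B6 reads and 7.72% of Cast reads and in clone 8 4.77% and 7.40%. The parts were again alike in clones 3 (3.47% and 3.47%), B52 (1.23% and 1.14%) and E9-3 (2.08% and 2.22%). These sums too rest on Igkv14-111. Without it the other 7 gave 3.70% of B6 reads and 2.15% of Cast reads in the pool, 1.31% and 1.88% in clone 4, and 2.00% and 1.48% in clone 8, where the direction turned to B6. They also gave more of B6 reads in clones 3 (2.97% and 1.07%), B52 (1.10% and 0.381%) and E9-3 (1.64% and 1.01%).

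**Figure D1:**
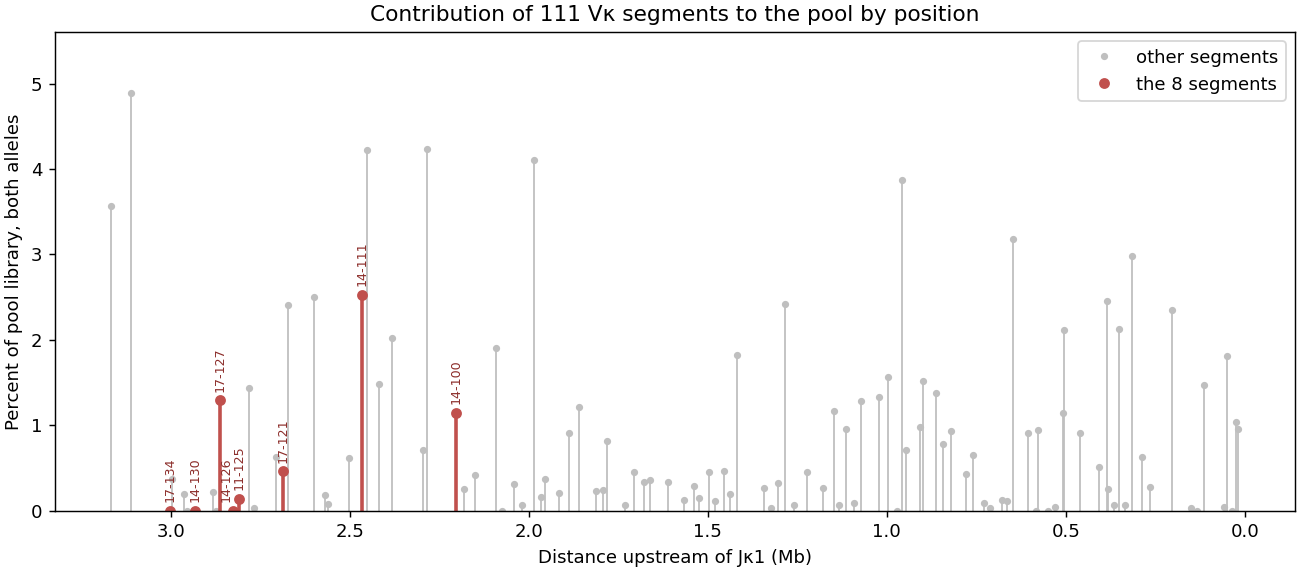
Percent of the pool library (vertical axis, both alleles summed) for each of the 111 Vκ segments with coordinates, by distance upstream of Jκ1 in Mb (horizontal axis), with the 8 segments in red and the others in grey. Igkv14-111 at 2.53%, Igkv17-127 at 1.29% and Igkv14-100 at 1.15% stand out among the 8, and Igkv17-134, Igkv14-130 and Igkv14-126 lie on or next to the axis.

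The 8 segments fell into 5 that were read in all 6 libraries of the clone comparison with at least 41 reads each, and 3 that were nearly or wholly unread. Igkv14-126 had 0 reads on either allele in all 10 libraries, as had 4 of the other 104 segments. Among the 5 read segments Igkv14-111 had the most reads in every library, and the order of the 8 in the pool was the same after division by exon length. The plot of contributions by library shows both sets on a log axis.

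**Figure D2:**
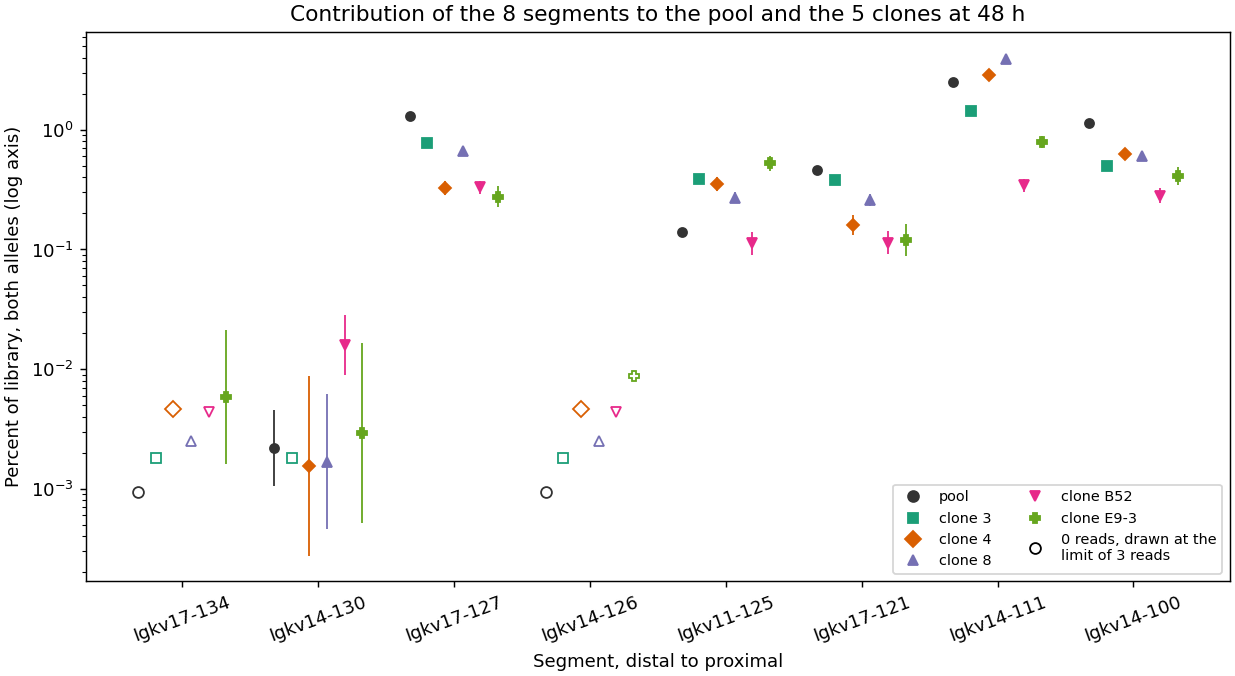
Percent of library (log axis, both alleles summed) of each of the 8 segments, from distal to proximal, in the pool and the 5 clones. Filled symbols are single libraries with 95% Wilson intervals, and open symbols mark 0 reads and are drawn at the limit of 3 reads. Igkv17-134, Igkv14-130 and Igkv14-126 sit at or below 0.0159%, and the other 5 segments lie between 0.113% and 3.94%.

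Igkv17-134, the pseudogene of the Igkv17 family, was read in a single library, with 2 reads on Cast in clone E9-3, or 0.00583% of that library (interval 0.00160 to 0.0213%). That is below the limit of 3 reads, and the pool, with 0 reads of 320951, allows a share of up to 0.000935%. Igkv17-134 had the same RSS as Igkv17-127, which gave 4154 reads in the pool.

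Igkv14-130 had 7 reads in the pool, 6 on B6 and 1 on Cast, or 0.00218% of the library. It had 11 reads in clone B52, 2 in clone 8, 1 each in clones 4 and E9-3 and 0 in clone 3, all on Cast, and 0 reads at the 4 times of the clone 4 time course. Clone B52 was thus the highest at 0.0159% (interval 0.00889 to 0.0285%), above the interval of the pool, and pool and clone B52 were the only libraries with at least 3 reads. Igkv11-125, with the same RSS bases, had 445 reads in the pool and 78 in clone B52.

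Igkv14-126, the segment with the A4G and G5T changes in its heptamer, was at 0 reads of 320951 in the pool, of 165679 in clone 3, of 64672 in clone 4, of 119020 in clone 8, of 69131 in clone B52 and of 34291 in clone E9-3. The limits that these counts allow run from 0.000935% in the pool to 0.00875% in clone E9-3. Igkv14-111, which is 91.6% identical to it, was read in every library, and how reads that match both were assigned was not tested.

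Igkv14-111 was the most used of the 8. It gave 2.53% of the pool (8108 reads), 3.94% of clone 8 (4691), 2.88% of clone 4 (1865), 1.43% of clone 3 (2371), 0.796% of clone E9-3 (273) and 0.343% of clone B52 (237). The clones thus spanned 11.5-fold, no neighbouring pair in their order had overlapping intervals, and the pool lay between clones 4 and 3. It ranked 3rd among all segments in clone 8 and 49th in clone B52.

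Reads of Igkv14-111 lay mostly on Cast in all 6 libraries of the clone comparison. The B6 share was 42.9% in the pool (interval 41.9 to 44.0%), 44.2% in clone 8 (42.8 to 45.7%), 42.7% in clone 4 (40.5 to 45.0%), 29.7% in clone E9-3 (24.6 to 35.3%), 24.5% in clone B52 (19.4 to 30.3%), while clone 3 had 18.1% (16.6 to 19.7%). Clones 4 and 8 and the pool thus overlapped one another and stood above the other 3 clones, which formed a lower set in which neighbours overlapped, and every value was below the B6 share of its whole library. As a part of its own allele, Igkv14-111 gave 5.92% of Cast reads against 2.77% of B6 reads in clone 8, 5.85% against 1.72% in clone 4 and 2.40% against 0.505% in clone 3.

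Igkv14-100, the most proximal of the 8, gave 1.15% of the pool (3678 reads), 0.629% of clone 4 (407), 0.605% of clone 8 (720), 0.502% of clone 3 (832), 0.411% of clone E9-3 (141) and 0.282% of clone B52 (195). The clones spanned 2.23-fold, the smallest span of the 5 read segments, and all lay below the pool. Intervals overlapped between clones 4 and 8 and between clones 3 and E9-3, and clone B52 was apart from the rest. The clone 4 library at 48 h of the time course gave 0.931% (interval 0.767 to 1.13%), above the 5 clone libraries and overlapping the pool.

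The B6 share of Igkv14-100 was 61.8% in the pool (interval 60.2 to 63.3%), 89.7% in clone B52 (84.7 to 93.3%), 73.1% in clone 3 (69.96 to 76.0%), 65.8% in clone 4 (61.1 to 70.3%), 62.4% in clone E9-3 (54.2 to 69.98%) and 58.3% in clone 8 (54.7 to 61.9%). Only clone B52 was separate from its neighbour in that order, with 175 B6 and 20 Cast reads. In clone B52 the segment gave 0.385% of B6 reads and 0.0846% of Cast reads. Igkv14-100 and Igkv14-111 thus stood on opposite sides of an equal share in all 6 libraries of the clone comparison. Relative to the B6 share of its whole library, Igkv14-100 was lower in clones 4 (71.8% for the library) and 8 (62.9%), as Igkv14-111 was. It was higher in the pool and in clones 3, B52 and E9-3. In the clone 4 library at 48 h of the time course both segments lay on the B6 side of an equal share, at 90.2% and 65.5%.

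Igkv17-127 gave 1.29% of the pool (4154 reads), 0.774% of clone 3 (1282), 0.670% of clone 8 (797), 0.331% of clone B52 (229), 0.329% of clone 4 (213) and 0.277% of clone E9-3 (95). Clones 3 and 8 were each apart from the rest, the other 3 overlapped as neighbours, and all clones lay below the pool. The clone 4 library at 48 h of the time course gave 0.566% (interval 0.442 to 0.725%), overlapping clone 8. The B6 share of Igkv17-127 was 71.2% in the pool (interval 69.8 to 72.59%), 84.3% in clone B52 (79.0 to 88.4%), 80.2% in clone 8 (77.3 to 82.8%), 71.7% in clone 3 (69.2 to 74.1%), 70.5% in clone E9-3 (60.7 to 78.8%) and 70.4% in clone 4 (64.0 to 76.1%). Clones B52 and 8 overlapped each other and stood above clone 3, and the pool lay with clones 3, E9-3 and 4.

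Igkv17-121, its close relative, gave 0.459% of the pool (1474 reads), 0.379% of clone 3 (628), 0.260% of clone 8 (309), 0.159% of clone 4 (103), 0.1196% of clone E9-3 (41) and 0.114% of clone B52 (79). The order of the clones began with clones 3 and 8 as for Igkv17-127, and the last 3 clones overlapped as neighbours. The clone 4 library at 48 h of the time course gave 0.721% (interval 0.579 to 0.898%), above clone 3. Reads of Igkv17-121 were nearly all on B6, with a share of 87.5% in the pool (interval 85.7 to 89.1%), 99.8% in clone 3 (99.1 to 99.97%), 92.9% in clone 8 (89.5 to 95.3%) and 90.3% in clone 4 (83.0 to 94.6%), and all 79 reads of clone B52 and all 41 of clone E9-3 on B6.

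On Cast, Igkv17-121 had 184 reads in the pool, 22 in clone 8, 10 in clone 4, 1 in clone 3 and 0 in clones B52 and E9-3. The count of 0 in clone B52 allows up to 0.0127% of its Cast reads, and in the pool the segment held 0.135% of Cast reads. Clone 3, with 80861 Cast reads in all, had the lowest contribution among the clones with any Cast read, 0.00124% of its Cast reads. With Igkv17-121 and Igkv17-127 summed, which removes the effect of reads split between the pair, the B6 share was 75.5% in the pool, 76.9% in clone 4, 79.4% in clone E9-3, 80.9% in clone 3, 83.7% in clone 8 and 88.3% in clone B52.

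Igkv11-125 gave 0.139% of the pool (445 reads), 0.528% of clone E9-3 (181), 0.385% of clone 3 (638), 0.354% of clone 4 (229), 0.271% of clone 8 (323) and 0.113% of clone B52 (78). It was the only one of the 5 read segments that was lower in the pool than in 4 of the clones, and clone E9-3, which was among the lowest for both Igkv17 segments, was the highest for it. The clone 4 library at 48 h of the time course gave 0.566% (interval 0.442 to 0.725%), overlapping clone E9-3. The B6 share of Igkv11-125 was 67.0% in the pool (interval 62.5 to 71.2%), 70.5% in clone B52 (59.6 to 79.5%), 58.0% in clone E9-3 (50.7 to 65.0%), 56.6% in clone 3 (52.7 to 60.4%), 46.7% in clone 8 (41.4 to 52.2%) and 43.2% in clone 4 (37.0 to 49.7%).

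Clones 8 and 4 were thus the lowest in B6 share at Igkv11-125, and the gap between clones 3 and 8 was the only one in the order with separate intervals. Both alleles of Igkv11-125 were read in all 6 libraries. Its relative Igkv11-106 was read on Cast alone in all 10 libraries, with 6483 reads in the pool.

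**Figure D3:**
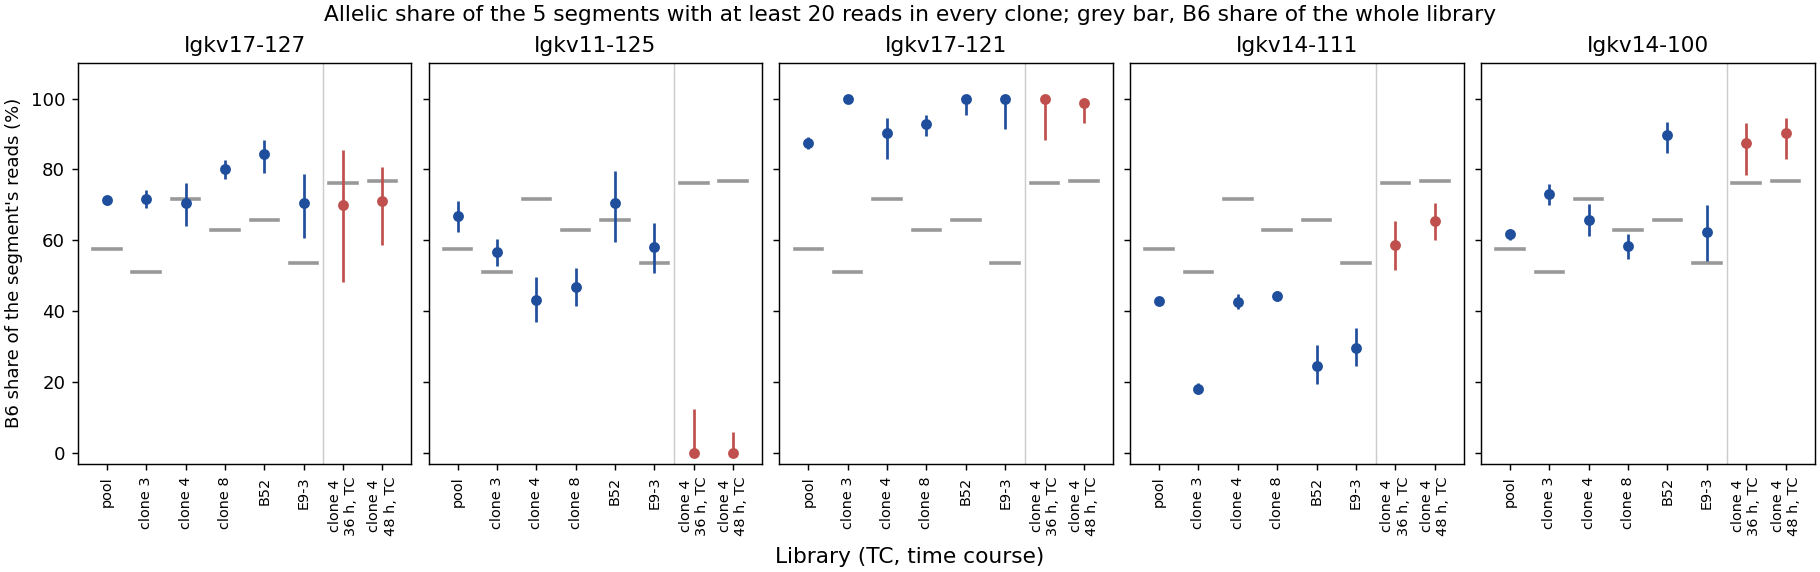
B6 share of the reads (percent, vertical axis) of each of the 5 read segments in the pool, the 5 clones and, in red, the clone 4 time course (TC) at 36 and 48 h, with 95% Wilson intervals. Grey bars give the B6 share of all reads of the library. Igkv17-121 lies above the grey bar in every library and Igkv14-111 below it, and Igkv11-125 is at 43.2% in clone 4 of the clone comparison and at 0 in the time course.

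Over the pool and the clones, a segment was called skewed when over 80% of at least 10 reads were on 1 allele. In the pool, 1 of the 5 segments that could be judged, Igkv17-121, was skewed to B6 and none to Cast, against 35.6% and 8.91% of all segments judged. In the clones Igkv17-121 was skewed to B6 in all 5, which 25.8% of the 93 segments judged in all clones also were. In the libraries of the clone comparison, Igkv17-127 was skewed to B6 in clones 8 and B52, and Igkv14-100 in clone B52. Igkv14-111 was skewed to Cast in clone 3, and Igkv14-130 in clone B52, where it had 11 reads. None was skewed to Cast in all 5 clones, against 5.38% of segments. Clone B52 thus had 3 of 6 judged segments skewed to B6, against 40.6% of all segments, and 1 to Cast, against 12.5%. Clone 8 had 2 of 5 skewed to B6, against 48.5%, and none to Cast, against 12.9%. In these 2 clones both Igkv17 segments were among those skewed to B6. Clone 3 had 1 of 5 on each side, against 34.3% and 18.6%. In the clone comparison, clone 4 had 1 of 5 on the B6 side, against 50.5%, with 7.77% on the Cast side. In its time-course library at 48 h, Igkv17-121 (98.7%) and Igkv14-100 (90.2%) were over 80% on B6. Igkv11-125 was over 80% on Cast there, with 0 of 62 reads on B6. The skew of Igkv14-100 and Igkv11-125 in clone 4 thus depended on the library. Clone E9-3 had 1 of 5 on the B6 side, against 34.7%, with 10.5% on the Cast side. These shares among the 8 rest on 5 or 6 segments and are set beside the background as counts only.

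Whether the B6 share differed between the 5 clone libraries was tested by a chi-square statistic with Monte Carlo permutations, with Benjamini-Hochberg adjustment over the 104 segments that reached 20 reads when the clones were summed. All 5 read segments passed, where 76.9% of the segments tested did, as did 17 of 19 other distal segments. Whether the 5 differ from the whole locus in this was not tested. Igkv17-127, Igkv17-121, Igkv14-111 and Igkv14-100 each had p = 0.0001, the smallest these permutations can give, and an adjusted p of 0.000146, and Igkv11-125 had an adjusted p of 0.000289. Igkv17-134, Igkv14-130 and Igkv14-126 had too few reads to be tested. Measured relative to the rest of the library, as odds of B6, the 5 also passed, against 75.0% of the segments. The test takes reads as independent.

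The 2 libraries of clone 4 at 48 h give a measure of the variation between libraries of 1 clone. The methods name 2 read lengths for VJ-seq but not which library had which. The 5 clone libraries share 1 table. These 2 libraries of clone 4 stand in different tables, with 64672 and 10958 reads, so their difference can include one between tables. Over 79 segments their B6 shares differed by a mean chi-square statistic of 19.03, and with the statistics divided by it 1 of the 5 segments, Igkv14-111, still passed, with an adjusted p of 0.0004 by the Monte Carlo permutation test, against 39.4% of the 104 segments. The other 4 had adjusted p of 0.627 (Igkv14-100), 0.8995 (Igkv17-121) and 1.0 (Igkv11-125 and Igkv17-127) in that permutation test. The pass of Igkv14-111 rests on the mean as divisor, since its own chi-square between the 2 clone 4 libraries was 55.4, against 521.1 between the clones. With each statistic divided by the larger of the mean and the segment's own value, an alternative chosen after seeing the data, its adjusted p in the permutation test was 0.146, none of the 5 passed (all 5 had an unadjusted p of 0.0533 or more), and 29.8% of the 104 segments did. The own values of the other 4 were 40.6 for Igkv11-125, 23.4 for Igkv14-100, 5.61 for Igkv17-121 and 0.00687 for Igkv17-127, so for Igkv11-125 the 2 libraries of 1 clone differed by more than the 28.5 between clones. The range of the B6 share over the 5 clones was 31.4 percentage points for Igkv14-100, 27.3 for Igkv11-125, 26.2 for Igkv14-111, 13.9 for Igkv17-127 and 9.71 for Igkv17-121, with a median of 26.2 over these 5, 28.7 over 18 other distal segments and 27.6 over 93 segments.

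Between the 2 clone 4 libraries at 48 h, the B6 share of Igkv17-127 was 70.4% and 71.0%, a difference of 0.545 percentage points, and that of Igkv17-121 was 90.3% and 98.7%. It was 42.7% and 65.5% for Igkv14-111, 65.8% and 90.2% for Igkv14-100, and 43.2% and 0% for Igkv11-125, with the library of the clone comparison given first. These last 3 differences, of 22.7, 24.3 and 43.2 percentage points, had separate intervals, and for Igkv14-111 the direction relative to an equal share turned. The median difference was 22.7 points over the 5 segments, 9.03 over 18 other distal segments and 7.90 over 84 segments, while the B6 share of the whole library was 71.8% and 76.7%.

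The contributions of the same 2 libraries differed by 1.02-fold for Igkv14-111, 1.48-fold for Igkv14-100, 1.60-fold for Igkv11-125, 1.72-fold for Igkv17-127 and 4.53-fold for Igkv17-121, from 0.159% to 0.721%. The medians were 1.60 over the 5 segments, 1.33 over 18 other distal segments and 1.55 over 84 segments. The highest and lowest clones differed by 11.5-fold for Igkv14-111, 4.68-fold for Igkv11-125, 3.32-fold for Igkv17-121, 2.79-fold for Igkv17-127 and 2.23-fold for Igkv14-100. A span over 5 libraries is larger by construction than a difference between 2, so these values are given side by side and were not tested against each other. On the B6 allele, Igkv17-121 had 0.620 reads for each read of Igkv17-127 in the clone comparison library of clone 4 and 1.77 at 48 h of the time course, against 0.409 to 0.682 in the pool and the other clones. The part of read assignment between these near-identical segments in that difference was not tested.

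Which of the segments appeared when was followed in clone 4 over the time course, in which the 8 together gave 0.979%, 1.62%, 4.89% and 5.61% of the libraries at 12, 24, 36 and 48 h. Without Igkv19-93 in the totals these sums were 2.38%, 2.38%, 5.75% and 6.16%, with 12 and 24 h differing by less than the rounding of these values. Igkv17-134, Igkv14-130 and Igkv14-126 had 0 reads at all 4 times. Igkv14-111 was read from the first time, with 15 reads at 12 h (0.864% of the library), 14 at 24 h (1.19%), 191 at 36 h (2.69%) and 310 at 48 h (2.83%). The intervals at 12 and 24 h overlapped, as did those at 36 and 48 h, and the pairs were separate from each other.

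Igkv14-100 had 1, 0, 80 and 102 reads at 12, 24, 36 and 48 h, and so 1.13% of the library at 36 h and 0.931% at 48 h. Igkv17-121 had 0, 0, 29 and 79 reads, and Igkv17-127 had 1, 0, 20 and 62. From 36 to 48 h the contribution went from 0.409% to 0.721% for Igkv17-121, with overlapping intervals, and from 0.282% to 0.566% for Igkv17-127, with separate intervals. Igkv11-125 had 0, 5, 27 and 62 reads, which came to 0.426% at 24 h, 0.381% at 36 h and 0.566% at 48 h, with overlapping intervals.

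All 94 reads of Igkv11-125 in the time course were on Cast, so that it held 2.43% of Cast reads and 0 of 8408 B6 reads at 48 h, which allows up to 0.0357%. Its B6 share at 48 h was at most 5.83% by the Wilson interval, against 99 B6 reads of 229 in the other library of the same clone. Of 90 segments with at least 10 reads in the time course and in that library, 5 lacked B6 reads in the time course altogether, and 1 of these, Igkv11-125, had over 20% of its reads on B6 in the clone comparison.

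Both Igkv17-121 and Igkv14-100 were read mostly on B6 in the later libraries. Igkv17-121 had all 29 reads on B6 at 36 h and 78 of 79 at 48 h. Igkv14-100 had 70 of 80 and 92 of 102 reads on B6. Igkv14-111 had 11, 5, 112 and 203 B6 reads among its 15, 14, 191 and 310 reads at 12, 24, 36 and 48 h, so its B6 share was 73.3%, 35.7%, 58.6% and 65.5%, with wide and overlapping intervals at the first 2 times.

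**Figure D4:**
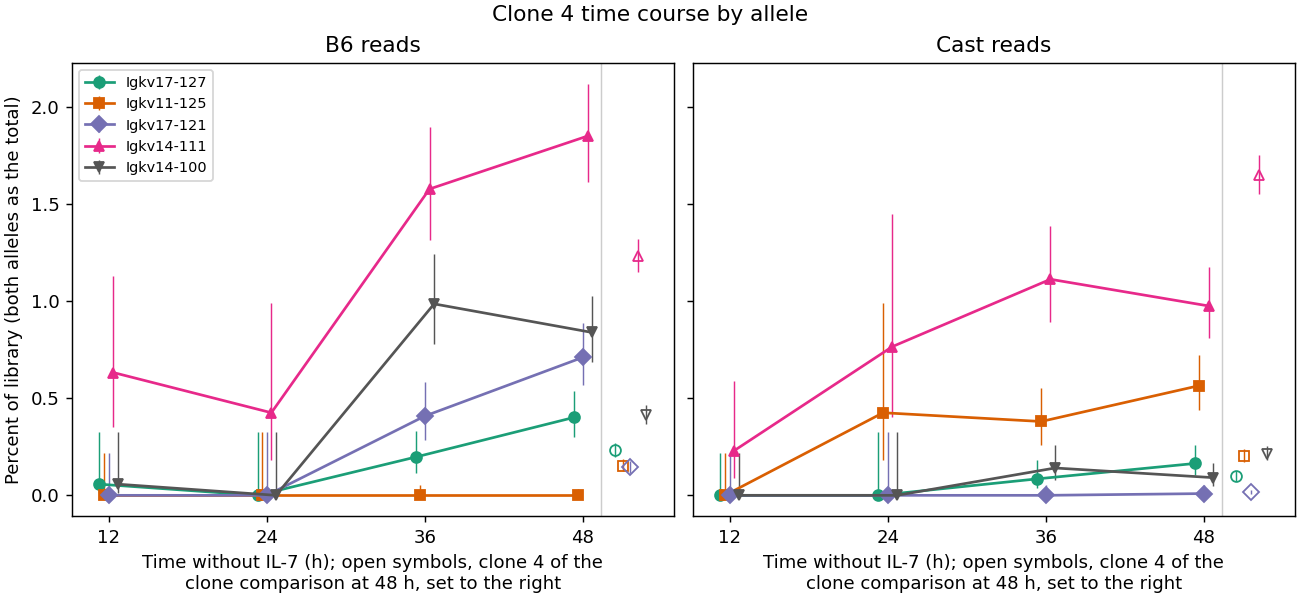
Percent of library of the 5 read segments in clone 4 at 12, 24, 36 and 48 h without IL-7 (horizontal axis), with B6 reads on the left and Cast reads on the right, single libraries with 95% Wilson intervals, and symbols shifted sideways for legibility. Open symbols give the clone 4 library of the clone comparison. Igkv11-125 is at 0 on B6 at all times and has 62 Cast reads at 48 h, and Igkv17-121 has 1 Cast read at 48 h.

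Between the libraries at 12 and 48 h, all 5 read segments had a higher share of the library at 48 h by Fisher's exact test (two-sided, Benjamini-Hochberg adjusted over 90 segments with at least 10 reads in the time course). Among all 90 segments, 50.0% were higher at 48 h and 7.78% lower, and 14 of 18 other distal segments tested were higher and 0 lower. Igkv14-111 was 3.28-fold higher (adjusted p = 2.88e-07 by the exact test), Igkv17-121 at least 4.17-fold higher (adjusted p = 5.36e-05) and Igkv11-125 at least 3.28-fold higher (adjusted p = 0.000633), the last 2 against the limit of 3 reads at 12 h. Igkv14-100, with 1 read at 12 h, had an adjusted p of 2.47e-05 by the exact test and Igkv17-127, also with 1, of 0.00324.

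With the reads of Igkv19-93 left out of the totals, Igkv17-121 (adjusted p = 0.0279 by Fisher's exact test) and Igkv14-100 (0.0390) remained higher, where 27.0% of 89 segments were higher and 11.2% lower, and 4 of 18 other distal segments were called in place of 14. The bound for Igkv17-121 fell to at least 1.88-fold and that for Igkv11-125 to at least 1.48-fold, against 3 of the 713 reads left at 12 h. Igkv11-125 (0.0856), Igkv17-127 (0.236) and Igkv14-111 (0.259) were not called, and Igkv14-111 went from 2.10% to 3.11% of the remaining reads, or 1.48-fold. The contributions of the 2 clone 4 libraries at 48 h differed by a mean chi-square of 33.9, and when all counts were first divided by that value the exact test called none of the 5, with 0.0% of the 90 segments higher and 1.11% lower. Each of the 5 had at most 15 reads at 12 h, and division and rounding left no count there. This setting therefore cannot decide whether their shares rose.

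The pattern of each read segment over the pool and the 5 clones was compared with that of 84 other segments by the Pearson correlation of log2 percent of library (0.5 reads added). This describes 6 libraries that differ in depth and share their totals. Igkv17-127 and Igkv17-121 were most like each other of all segments (r = 0.97), followed for both by Igkv9-124 (r = 0.81 and 0.88) and then by Igkv14-100 for Igkv17-127 (r = 0.75) and by Igkv1-117 for Igkv17-121 (r = 0.82). Igkv14-111 was most like Igkv9-120 (r = 0.97), Igkv6-15 (r = 0.97) and Igkv11-106 (r = 0.96), and Igkv14-100 most like Igkv12-46 (r = 1.00), Igkv12-89 (r = 0.92) and Igkv9-124 (r = 0.90). Igkv11-125 was most like Igkv1-132 (r = 0.91), Igkv2-116 (r = 0.86) and Igkv4-50 (r = 0.85), and its r with the other 4 read segments ran from -0.33 to 0.24. The 2 Igkv14 segments had r = 0.80 with each other, and the spliced exons of the Igkv17 pair are 97.5% identical. The part of read assignment in the r of the Igkv17 pair was not tested.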

How the data were processed

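Igκ VJ-seq libraries of the pool, 5 clones and the clone 4 time course were analysed, and the ATAC-seq and RNA-seq samples of the series were not used here. The authors aligned the trimmed reads to a genome that held the B6 and Cast sequences, using Bowtie2, and obtained the number per segment and allele with HTSeq. The deposited tables hold these raw counts, not normalized. Versions of these tools are not given in the sources used here. Percent of library is the reads of a segment over all reads of the library, and B6 share its B6 reads over its reads on both alleles. Samples were grouped by their labels, and libraries of the 2 tables were compared through their own totals.

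Monte Carlo permutation chi-square tests (9999 draws, a minimum of 20 reads summed over the clones) and Fisher's exact tests (at least 10 reads) were adjusted by Benjamini-Hochberg over all segments, at a threshold of 0.05. No count model was fitted, since no condition had replicates within a table. On simulated counts, the first test called 30 of 30 changed and 1 of 74 unchanged segments of 104, and the second 6 of 10 changed and 0 of 80 unchanged segments of 90. The simulated reads were independent, without the excess variation seen between the libraries of clone 4. These rates therefore do not cover that variation and do not hold for the real counts where it is present. Alternatives varied the read minimum, the clones included, the total, the allele, the cut for skewed segments, the clone 4 library and the division by excess variation, and 4 more were chosen after seeing the data: the division by a segment's own variation, the odds relative to the rest of the library, the sum of Igkv17-121 and Igkv17-127, and the sum without Igkv14-111. Annotation is GENCODE M21, in which 111 of 112 segments were found by name. The segments named were all 8, the nearest segment on each side of each, the 3 most similar to each read segment, and the most abundant segment of a library where it changes a percent. The segments and the comparison list were chosen with earlier results of these data known. The tools were SciPy 1.17.1, NumPy 2.4.6 and pandas 2.3.3 under Python 3.11.15, Biopython 1.88 for alignment and matplotlib 3.10.9.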

Additional observations from a re-analysis of the deposited data

Results flagged for a closer look

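The B6 share of Igkv14-111 differed between the clones by the Monte Carlo permutation test, which takes reads as independent (adjusted p = 0.000146, and 0.0004 with the statistic divided by the mean chi-square between the 2 clone 4 libraries), with a range of 26.2 percentage points from 18.1% in clone 3 to 44.2% in clone 8. The same segment was at 42.7% and 65.5% in the 2 clone 4 libraries at 48 h, so the difference within clone 4 came to 22.7 points. With the statistic divided by this segment's own chi-square between these libraries, 55.4, the adjusted p was 0.146, and with 1 library for each other clone a difference between clones cannot be told apart from one between libraries.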

How the results depend on the processing

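No paired analysis was possible because the VJ-seq libraries carry no replicate numbers. The count of segments with an allelic difference between clones was 80 of 104, with all 5 tested segments of the set, and stayed between 76 and 80, with all 5, when each clone was left out in turn, with other read minimums, with segments read on both alleles only and, chosen after seeing the data, relative to the rest of the library (78, 75.0% of those tested). With the statistic divided by the excess variation it was 41, with 1 of the 5, and, chosen after seeing the data, divided by the larger of that and the segment's own value, 31, with 0 of the 5 by the permutation test. For 12 against 48 h, leaving out Igkv19-93 gave 24 segments higher and 10 lower, against 45 and 7, and 2 of the 5 higher, B6 reads alone 40 higher and 7 lower and 4 of the set, since Igkv11-125 had no B6 read to test, and counts divided by the excess variation 0 higher, 0 of the 5 and 1 lower. The 45 skewed segments of the pool became 26 among segments read on both alleles, and at cuts of 70% and 90% they became 62 and 38, with 2 and 0 of the set. Without the most abundant segment of each library the 8 gave 5.85% of the pool, 3.74% of clone 3, 4.56% of clone 4, 6.04% of clone 8, 1.50% of clone B52, 2.45% of clone E9-3, and 2.38%, 2.38%, 5.75% and 6.16% of the time course at 12, 24, 36 and 48 h. The time-course library of clone 4 at 48 h gave 5.61% against 4.36%. The causes were not tested, beyond the smaller totals and smaller counts that these settings have by construction. The depth at 12 and 24 h, with 1737 and 1174 reads, limits every statement on those times.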

Other observations

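The nearest counted segments on each side of the 8 had the following values in the pool. Igkv17-134, with 0 reads, lies 3.68 kb from Igkv1-133, which gave 0.366% of the pool, and 110.2 kb from Igkv1-135, which gave 4.89% with a B6 share of 81.2%. Igkv14-111, at 2.53% of the pool with a B6 share of 42.9%, lies 13.6 kb from Igkv1-110, at 4.22% with a B6 share of 19.3%, and 35.7 kb from Igkv2-112, at 0.623% with a B6 share of 60.01%. Igkv17-121, with a B6 share of 87.5%, lies between Igkv1-122 (37.2%) and Igkv9-120 (61.6%). Igkv11-125, with 67.0%, is followed after 28.02 kb by Igkv9-124 with 22.2%. Igkv14-100 (61.8%) lies between Igkv15-103 (47.7%) and Igkv1-99 (18.9%). Igkv17-127, at 1.29% of the pool, has on its sides Igkv9-128 and Igkv14-126, both with 0 reads in the pool, and Igkv14-130 lies between Igkv1-131, also with 0, and Igkv9-129, with 0.222%.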
